A study of Parhyale hawaiensis with 10 samples.

Results

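The regions described here were called accessible in every leg library and had no called peak in any whole embryo. They come from ATAC-seq of the amphipod crustacean Parhyale hawaiensis, in which the Tn5 transposase cuts DNA wherever chromatin leaves it exposed. Peaks of the 9 nuclei libraries were merged where they overlapped or touched, and a region counted as called in a library when a deposited peak overlapped it by at least 1 bp. Regions were chosen by these peak calls alone: they were called in all 6 leg libraries and in none of the 3 embryos, on scaffolds whose largest peak end was at least 10000. This rule gave 1117 of 280946 regions, which is 7.36% of the 15184 leg-wide regions (called in all 6 leg libraries, on the same scaffolds). A further 54 regions met the rule on shorter scaffolds and were left out.

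All animals came from the Chicago-F inbred line, per the labels. Adult legs (3 libraries) were uninjured T4 and T5 legs of adults. Embryonic legs (3 libraries) were T4 to T8 legs dissected from pools of embryos at stages 25 to 26, so that age and the set of legs differ together. For the embryo libraries a single embryo was taken at each of stages 20, 23 and 24, with no replicates, and its lysis buffer was not that of the embryonic legs. All 3 embryos were younger than any of the legs, so that tissue and stage differ together between embryos and legs. In 1 further library, naked DNA of a whole adult was cut in place of nuclei. The peak names in the list of adult leg 2 lack the replicate number that those of the other leg lists carry, and the list was taken as adult leg 2 from its deposited sample alone. Whether the replicates came from separate animals is not given in the labels, and each p-value then speaks only of the spread among these libraries, which may be technical.

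Promoters and enhancers are the usual sites of open chromatin. A promoter is often open in many tissues, while an enhancer tends to be open in the cells that use it. An arthropod leg holds epidermis that secretes cuticle, muscle, nerve and blood cells, and in a late embryo these cells are still differentiating. A whole embryo holds its legs among all other tissues, so a region open in few cells can be present there and still give no peak. Absence of a called peak does not show closed chromatin, and the regions are called embryo-uncalled leg regions below. No genome sequence or gene annotation was used, and the regions carry no gene names.

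The 1117 embryo-uncalled regions were among the weaker leg-wide regions in every leg library. The deposited fold of a peak sets its summit pileup (the fragments stacked there) over the pileup expected locally, each with 1 added. What was stacked is not given, so fragments here and below stand for units of pileup. The median fold over the 1117 regions was 8.15, 7.31 and 6.39 in adult legs 1 to 3 and 6.84, 7.38 and 7.99 in embryonic legs 1 to 3. The other 14067 leg-wide regions had medians of 11.7, 8.96 and 8.70 in adult legs and 12.6, 12.6 and 14.5 in embryonic legs. The median summit held 23, 16 and 11 fragments in adult legs 1 to 3, and 15, 15 and 20 fragments in embryonic legs 1 to 3. The other leg-wide regions had median summits of 36, 20 and 16 fragments in adult legs and 33, 31 and 43 in embryonic legs. The rule rests on peak calls in these libraries, so the levels are a description and were not tested.

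The share of leg-wide regions without an embryo peak was lower among stronger regions. Leg-wide regions were divided into 10 equal groups (deciles) by their mean rank of fold over the 6 leg libraries, with decile 1 the weakest, and 19.4% of decile 1 (95% Wilson interval 17.5% to 21.5%) had no embryo peak. In decile 5 it was 6.91% (5.74% to 8.30%) and in decile 10 0.461% (0.223% to 0.948%), which is 7 of 1519 regions. Deciles 1 to 5 held 994 of the 1117 regions (89.0%). Over all 1117, the least significant leg library had a median −log10 q of 4.16, against 5.86 in the regions with a peak at stage 24 only and 8.53 in all other leg-wide regions. In 456 regions (40.8%) the −log10 q was at least 5 in all 6 leg libraries, against 57.0% and 68.4% of the same sets. Fold and −log10 q come from the leg peaks that the rule asked for, so these values describe the regions and were not tested. The intervals cover counting error only.

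**Figure D1:**
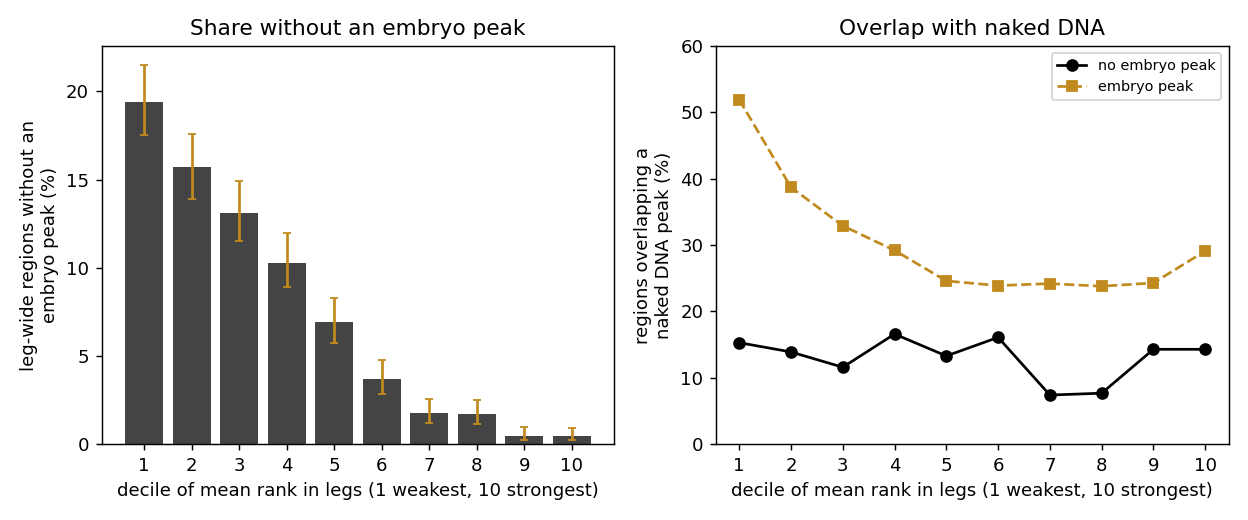
Left, percent of leg-wide regions without an embryo peak in each decile of mean rank over the 6 leg libraries, with 95% Wilson intervals as bars. Right, percent of regions that overlap a naked DNA peak in the same deciles, for regions without an embryo peak (circles) and with one (squares). The share without an embryo peak was 19.4% in decile 1 and 0.461% in decile 10, and the circles lie below the squares in all 10 deciles.

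The depth of the embryo libraries was set beside the strength of the regions in legs. The background pileup, which measures relative depth, was 0.482, 0.451 and 0.252 in adult legs 1 to 3 and 0.457, 0.394 and 0.526 in embryonic legs 1 to 3. The embryo libraries had 0.404 at stage 20, 0.233 at stage 23 and 0.555 at stage 24. The median embryo-uncalled region had a summit pileup 39.8 times the background (median of the 6 leg libraries). Carried to the background of each embryo, that enrichment corresponds to a median summit pileup of 16.1 at stage 20, 9.28 at stage 23 and 22.1 at stage 24. Of the peaks called at background in these embryos, those at the 1st percentile had pileups of 4, 3 and 4.

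At the enrichment measured in legs, 1117, 1115 and 1117 of the regions would reach those pileups at stages 20, 23 and 24. So would 14067, 14045 and 14067 of the 14067 other leg-wide regions. With the lowest of the 6 leg libraries in place of their median, 1065, 943 and 1117 regions would. Of the other leg-wide regions, 13753, 12961 and 14067 would. At all 3 stages together this was 84.4% of the embryo-uncalled and 92.1% of the other leg-wide regions. The stage 23 embryo, the shallowest, was the limiting one. The rule asked for a peak in all 6 leg libraries, where the same percentile gave pileups of 3 or 4 at like backgrounds. Reaching the embryo pileups was thus largely set by the rule, and the counts cannot show whether depth sufficed. The calculation takes the background of the whole embryo and does not allow for a locally raised background. The stage 24 list has a narrowest peak of exactly 200 bp, unlike the 122 to 152 bp of the other nuclei libraries, and its pileup may be on another scale. Fewer cells with an open region and a less open region in each cell cannot be told apart in bulk libraries.

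**Figure D2:**
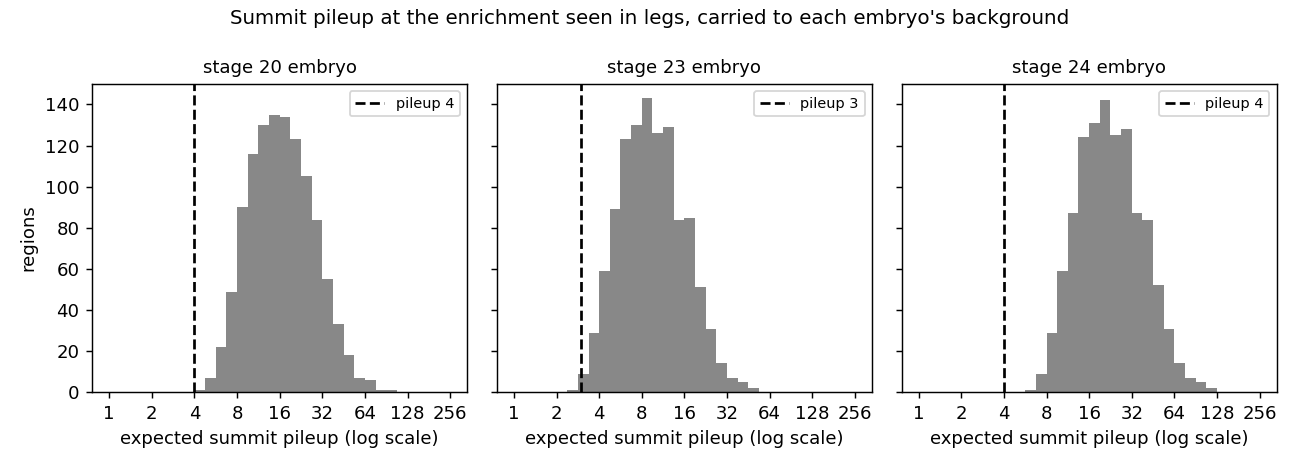
Distribution of the summit pileup that each of the 1117 regions would have in the embryos at stages 20, 23 and 24 at the enrichment seen in legs (log scale), with the number of regions on the vertical axis. The dashed lines mark the 1st percentile of pileup among embryo peaks called at background (4, 3 and 4), and 2 regions fall below the line, both at stage 23.

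The choice of 1 bp as the overlap decided few cases. An embryo peak lay within 500 bp of 58 regions (5.19%), in 49 of them a stage 24 peak, and within 200 bp of 8. The median distance to the nearest embryo peak was 3435 bp, and it was 13711, 13150 and 3922 bp for the stages 20, 23 and 24 taken singly. The region nearest to an embryo peak, at 403533 to 403827 of phaw_50.282260a, lay 21 bp from it. Just outside the rule, the leg-wide region at 12280582 to 12281670 of phaw_50.000135c shared 42 bp with embryo peaks. At the scaffold minimum, the region at 3200 to 3868 of phaw_50.014772 was just inside, on a scaffold with peaks up to 13872, and that at 9277 to 9818 of phaw_50.001718, with peaks up to 9818, was just outside.

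Embryo-uncalled regions ranked higher in adult than in embryonic legs. Ranks are percentiles of the deposited fold among the 15184 leg-wide regions within each library, where 100 is the strongest, and this common set keeps list length from setting the scale. The median rank of the 1117 regions was 28.1, 36.8 and 30.0 in adult legs 1 to 3, and 17.1, 20.7 and 18.2 in embryonic legs 1 to 3. Every adult leg library lay above every embryonic leg library. The means were 31.7 ± 4.56 in adult and 18.7 ± 1.85 in embryonic legs (SD, n = 3 each), a difference of 13.0 percentile points. An exact permutation of the libraries (two-sided) gave p = 0.1, which is as low as 3 against 3 can go. The rule itself bears on this contrast. It removed regions with a peak in whole embryos, which hold embryonic legs and are nearer in age to them than to adult legs. A lower rank in embryonic legs may thus come in part from the rule, as may other differences between the leg types below. How large that part is was not tested. With stage 24 not asked for absence, the difference was 5.91 points.

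The leg-wide regions called in embryos had smaller differences. Leg-wide regions called at stage 24 but at neither earlier stage (2228) had a mean median rank of 38.0 ± 1.60 in adult and 36.4 ± 1.07 in embryonic legs (SD, n = 3 each; p = 0.2 by exact permutation, two-sided). Those called in all 3 embryos (7356) had 62.5 ± 1.12 in adult and 65.1 ± 0.491 in embryonic legs (SD, n = 3 each; p = 0.1 by exact permutation, two-sided). The median rank of the 1117 regions minus that of the other leg-wide regions was −20.1 ± 5.10 in adult legs and −34.3 ± 1.96 in embryonic legs (SD, n = 3 each). This difference between leg types was 14.2 points (p = 0.1 by exact permutation, two-sided). Ranks within 1 common set are tied together, so that a higher rank of some regions lowers that of others. The values of these sets are thus not independent of the difference in the 1117 regions.

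**Figure D3:**
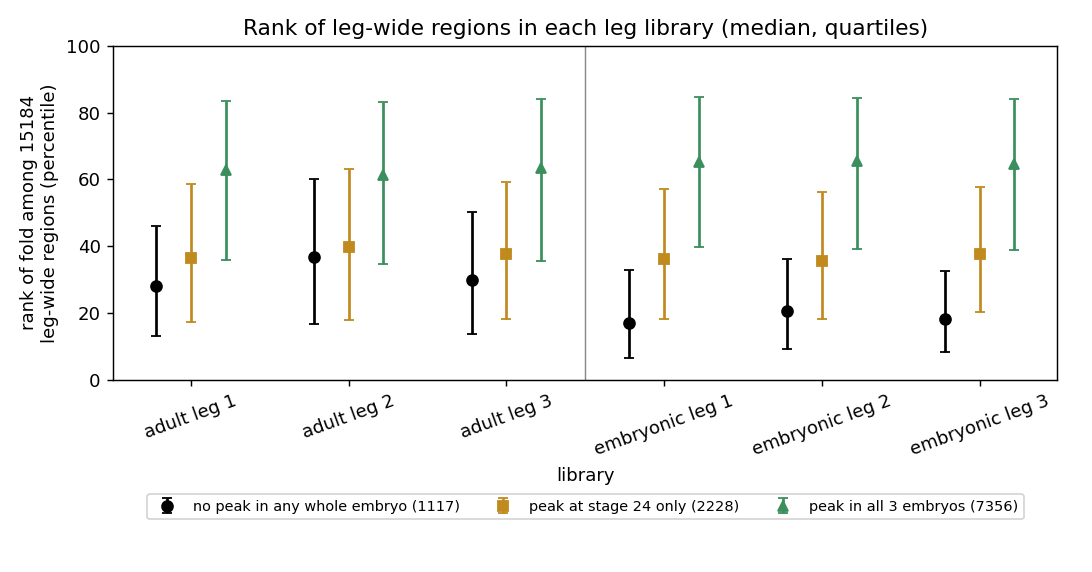
Median rank (percentile of fold among 15184 leg-wide regions, symbols) with quartiles (bars) in each leg library, adult legs on the left, for leg-wide regions with no embryo peak, with a peak at stage 24 only and with a peak in all 3 embryos. The circles stand at 28.1 to 36.8 in adult and at 17.1 to 20.7 in embryonic legs, while the squares of the 2 leg types overlap.

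The higher rank in adult legs was present at most strengths. Within deciles of mean rank, the median difference (adult minus embryonic) of the embryo-uncalled regions was 5.40, 10.1, 15.7, 22.2 and 17.9 points in deciles 1 to 5. In the same deciles the other leg-wide regions had 3.24, 3.76, 3.13, 2.59 and 0.164 points. In deciles 6 and 7 it was 14.2 and 15.7 points, against −0.907 and −2.79 in the other leg-wide regions. Deciles 8, 9 and 10 held 26, 7 and 7 embryo-uncalled regions with median differences of 0.488, −10.0 and −4.17 points. Deciles 9 and 10 are too thinly filled to read.

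Single regions were compared between the leg types with limma on normal scores of the ranks, fitted over all 15184 leg-wide regions. Of the 1117 embryo-uncalled regions, 106 (9.49%) ranked higher in adult legs at an adjusted p under 0.05 (limma, Benjamini-Hochberg over all leg-wide regions), and 7 (0.627%) ranked lower. Over all leg-wide regions 2.56% were called higher and 3.24% lower in adult legs. Among regions with a peak at stage 24 only, 3.23% were called higher and 2.38% lower, and among those with a peak in all 3 embryos 1.32% and 4.04%. The remaining 1004 embryo-uncalled regions did not pass the test in either direction. Of all 1117, 802 (71.8%) had a higher mean rank in adult legs, against 49.9% of the other leg-wide regions. The absence of embryo peaks asked for by the rule bears on these counts as it does on the median ranks.

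The number of calls depended on single libraries. With the same regions and limma, 159 (14.2%) and 96 (8.59%) were called higher in adult legs without adult leg 1 and adult leg 2, against 4.33% and 4.02% of all leg-wide regions. Without adult leg 3 the count was 0, as it was over all leg-wide regions, and without embryonic legs 1, 2 and 3 it was 0, 5 and 5, against 0.0132%, 0.0527% and 0.0790% of all leg-wide regions. The calls thus fell away in the whole leg-wide set in these runs. At an unadjusted p under 0.05 (limma), 310 regions (27.8%) were higher in adult legs with all libraries, against 11.5% of all leg-wide regions. The shares were 25.5% without adult leg 3 and 20.9%, 22.5% and 21.2% without embryonic legs 1 to 3 (285, 234, 251 and 237 regions), against 8.78%, 8.23%, 8.77% and 7.83% of all leg-wide regions.

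The calls lower in adult legs were 17 (1.52%) and 14 (1.25%) without adult legs 1 and 2, against 5.30% and 4.81% of all leg-wide regions. They were 0 without any other leg library, against at most 0.0395% of all leg-wide regions. At an unadjusted p under 0.05 (limma), 53 regions (4.74%) were lower in adult legs with all libraries, against 12.9% of all leg-wide regions. Without adult leg 3 or an embryonic leg the share was 2.95% to 4.57% (33 to 51 regions), against 8.88% to 10.3% of all leg-wide regions. Counting regions whose 3 adult ranks all lay above the 3 embryonic ranks gave 311 (27.8%), against 13.5% of all leg-wide regions. The reverse held for 57 (5.10%), against 16.0%.

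**Figure D4:**
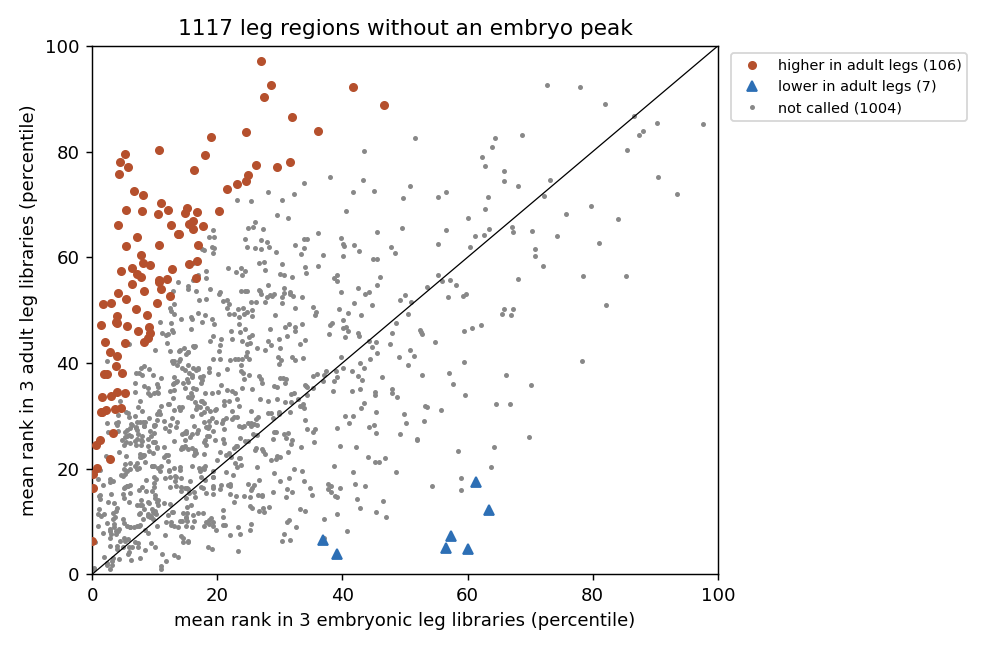
Mean rank of each of the 1117 regions in the 3 adult leg libraries (vertical) against the 3 embryonic leg libraries (horizontal), in percentiles among leg-wide regions. Filled circles mark the 106 regions called higher and triangles the 7 called lower in adult legs (limma, adjusted p under 0.05), and 802 of the 1117 points lie above the diagonal.

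In the 6 called regions with the largest rank difference in favour of adult legs, every adult fold exceeded every embryonic fold. The regions were picked for that difference, so the separation was largely set by the choice. The region at 45053645 to 45053993 of phaw_50.283811 led with folds of 15.0, 14.2 and 14.3 in adult legs 1 to 3 and 4.02, 5.32 and 5.61 in embryonic legs 1 to 3. Its summits held 41, 34 and 26 fragments in adult legs and 5, 7 and 8 in embryonic legs, and the ranks averaged 79.6 ± 7.73 in adult and 5.19 ± 2.90 in embryonic legs (SD, n = 3 each; limma adjusted p = 0.0104). The lowest adult fold was well above the highest embryonic one. An embryo peak lay 625 bp away.

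The region at 2400505 to 2401048 of phaw_50.020523a followed with folds of 16.4, 14.3 and 11.9 in adult legs and 3.79, 5.97 and 3.30 in embryonic legs (limma adjusted p = 0.0115). It overlapped a naked DNA peak. The region at 2857856 to 2858492 of phaw_50.283874a had folds of 15.9, 11.8 and 13.2 in adult and 3.00, 4.78 and 6.07 in embryonic legs (limma adjusted p = 0.0141). On phaw_50.283862a the region at 2929528 to 2930059 had 14.8, 14.6 and 12.5 in adult and 4.84, 3.22 and 6.67 in embryonic legs (limma adjusted p = 0.0141), and its nearest embryo peak was 63956 bp away. Embryonic ranks in these 3 regions were 0.142 to 11.6, at the weak end of the leg-wide regions.

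The strongest adult signal of the 6 was at 21498413 to 21498804 of phaw_50.283468b. Its folds were 22.7, 28.9 and 18.6 in adult legs and 4.54, 13.9 and 7.91 in embryonic legs, and embryonic leg 2 stood well above the other embryonic libraries (limma adjusted p = 0.0149). The region overlapped a naked DNA peak. The widest, 1397 bp at 7355634 to 7357030 of phaw_50.282695a, had folds of 15.8, 13.7 and 14.4 in adult and 4.12, 8.23 and 4.89 in embryonic legs (limma adjusted p = 0.0141).

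In the regions called lower in adult legs, the adult peaks were weak. At 32485890 to 32486263 of phaw_50.283815c, folds were 3.90, 3.95 and 4.32 in adult legs 1 to 3 and 10.8, 16.7 and 16.9 in embryonic legs 1 to 3 (limma adjusted p = 0.0146). Its summit held 5 fragments in each adult library and 22, 43 and 60 in the embryonic ones. At 397819 to 398152 of phaw_50.282976c, folds were 4.05, 4.83 and 3.19 in adult and 16.6, 13.0 and 12.5 in embryonic legs (limma adjusted p = 0.0184). The adult summits there held 5, 6 and 3 fragments.

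The remaining 4 of the 6 with the largest differences followed the same order. All 6 were picked for their difference, so this order was largely set by the choice. At 10382296 to 10383011 of phaw_50.015400a, folds were 4.56, 5.58 and 4.80 in adult and 15.6, 16.5 and 13.9 in embryonic legs (limma adjusted p = 0.0255). At 17852354 to 17852790 of phaw_50.283867b, they were 3.81, 5.53 and 3.19 in adult and 13.2, 14.1 and 15.0 in embryonic legs (limma adjusted p = 0.0215). All 3 adult folds lay below all 3 embryonic folds in both. At 24423830 to 24424258 of phaw_50.283850a, folds were 6.07, 6.26 and 4.79 in adult and 11.9, 17.3 and 15.9 in embryonic legs (limma adjusted p = 0.0435). At 4768259 to 4768789 of phaw_50.007301b, they were 5.48, 3.12 and 3.28 in adult and 10.4, 10.7 and 11.1 in embryonic legs (limma adjusted p = 0.0246), again without overlap. None of the 7 regions called lower overlapped a naked DNA peak (95% Wilson interval up to 35.4%). Since a region had to be called in all 6 leg libraries, regions without any adult peak are not among them.

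**Figure D5:**
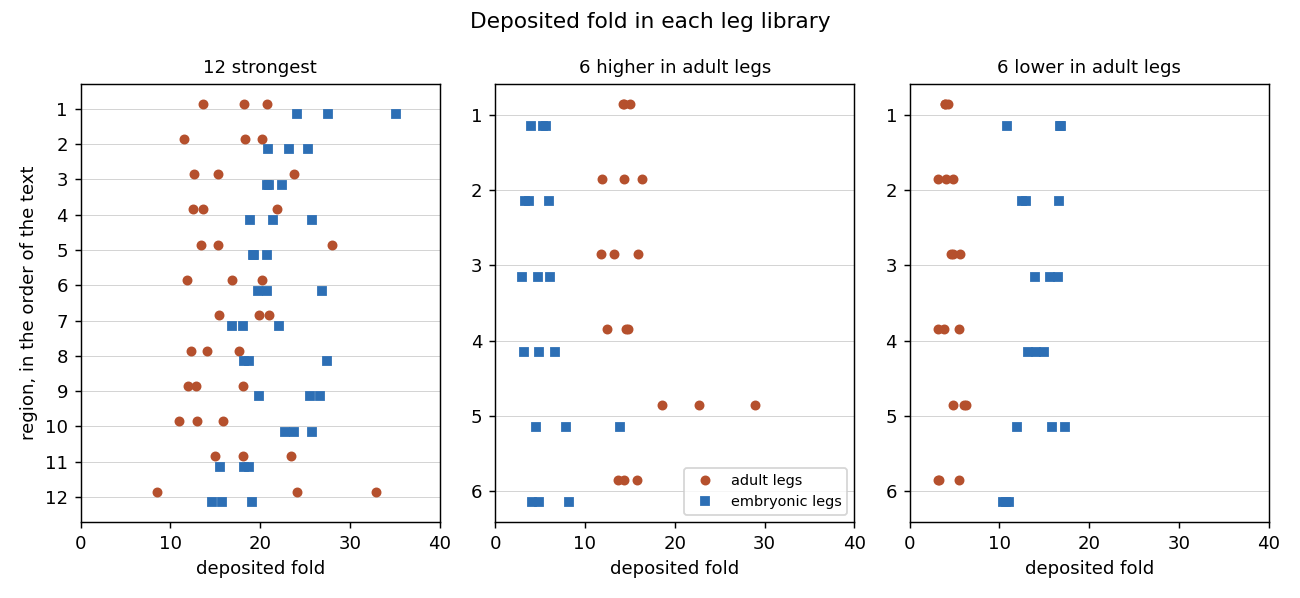
Deposited fold in each leg library for the 12 strongest regions, the 6 with the largest rank difference in favour of adult legs and the 6 with the largest difference against them, numbered from the top in the order of the text. Circles are the 3 adult and squares the 3 embryonic leg libraries, which overlap in fold in most of the strongest regions. They separate in the other 2 sets, which were picked for their difference. In the strongest regions numbered 1, 2, 8, 9 and 10, every embryonic fold exceeds every adult fold. Folds are not on a common scale between libraries, and of these regions only number 10 also separates by rank.

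A few embryo-uncalled regions were strong in both leg types. The 12 with the highest mean rank over the 6 leg libraries, 75.9 to 91.5, did not pass the test between leg types, with adjusted p-values of 0.114 to 0.907 (limma). The first, at 4393098 to 4393637 of phaw_50.283866, had folds of 13.6, 20.7 and 18.2 in adult legs 1 to 3 and 24.1, 27.5 and 35.1 in embryonic legs 1 to 3. Its summits held 21, 40 and 32 fragments in adult and 47, 61 and 106 in embryonic legs, and no embryo peak lay within 7903 bp. Its rank was 63.9 in adult leg 1 and at least 95.3 in the other leg libraries.

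The second, at 8304277 to 8304696 of phaw_50.282396b, had folds of 20.2, 18.3 and 11.5 in adult legs and 23.2, 25.3 and 20.9 in embryonic legs, and it overlapped a naked DNA peak. The third, at 51388647 to 51389124 of phaw_50.283823c, had 23.7, 15.3 and 12.6 in adult and 22.4, 21.0 and 20.7 in embryonic legs. Number 4, a narrow region of 243 bp at 12245503 to 12245745 of phaw_50.282275a, had 21.9, 13.6 and 12.5 in adult and 18.9, 21.4 and 25.8 in embryonic legs. In the regions numbered 2 to 4 the lowest fold was that of adult leg 3, the shallowest leg library.

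The fifth began at the first base of its scaffold, at 1 to 422 of phaw_50.282382, with folds of 28.0, 13.4 and 15.3 in adult and 20.8, 19.3 and 19.2 in embryonic legs. No embryo peak was called on that scaffold. The sixth, at 4244220 to 4244591 of phaw_50.283873b, had 16.9, 20.2 and 11.8 in adult and 26.9, 19.7 and 20.7 in embryonic legs, with the nearest embryo peak 38464 bp away. The seventh, 879 bp wide at 9982509 to 9983387 of phaw_50.283867c, had 19.9, 21.0 and 15.4 in adult and 22.1, 18.1 and 16.8 in embryonic legs. In the regions numbered 5 to 7 the leg types overlapped in fold.

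The eighth, at 16539197 to 16539541 of phaw_50.282396a, averaged a fold of 14.7 ± 2.68 in adult and 21.5 ± 5.16 in embryonic legs (SD, n = 3 each), overlapped a naked DNA peak and lay 661 bp from an embryo peak. The ninth, at 5522142 to 5522553 of phaw_50.000135b, averaged 14.2 ± 3.34 in adult and 24.0 ± 3.62 in embryonic legs, and the tenth, at 10434364 to 10434940 of phaw_50.283862a, 13.3 ± 2.49 in adult and 24.1 ± 1.61 in embryonic legs (SD, n = 3 each). The ranks of the leg types overlapped in the eighth and ninth regions but not in the tenth. The eleventh, at 5658643 to 5659210 of phaw_50.283850a, averaged 18.8 ± 4.26 in adult and 17.5 ± 1.73 in embryonic legs (SD, n = 3 each), and ranked higher in each adult library (96.6, 92.5 and 88.5) than in each embryonic one (81.0, 67.2 and 70.1). The last, at 36853312 to 36853671 of phaw_50.282861b, had folds of 32.9, 24.1 and 8.52 in adult legs 1 to 3 and 14.6, 15.7 and 19.1 in embryonic legs 1 to 3. Adult legs 1 and 2 there stood above, and adult leg 3 below, every embryonic leg library.

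Overlap with naked DNA, which the rule used only for the scaffold minimum, was less frequent than in the other leg-wide regions as a whole. A naked DNA peak overlapped 156 of the 1117 regions, 14.0% (95% Wilson interval 12.1% to 16.1%), against 29.7% (29.0% to 30.5%) of the other leg-wide regions. Regions with a peak at stage 24 only had a like share of 12.7% (11.4% to 14.1%), and those with a peak in all 3 embryos 37.0% (35.9% to 38.1%). Among naked DNA peaks with a −log10 q of at least 5, the share was 1.88% (1.23% to 2.86%, 21 regions), against 16.9% (16.3% to 17.5%) of the other leg-wide regions. The regions are not independent replicates, so the intervals cover counting error only and no test was made. An overlap of 1 bp counted, and the other leg-wide regions were wider, which was not allowed for. Whether asking for absence of embryo peaks itself lowers the share was not tested.

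Across strength, the share of embryo-uncalled regions with a naked DNA peak was 15.3% in decile 1, 11.6% in decile 3 and 13.3% in decile 5, while in the other leg-wide regions it was 51.9%, 32.9% and 24.6%. In deciles 6 to 10 together it was 12.2% of the embryo-uncalled and 25.1% of the other leg-wide regions. Regions called higher in adult legs had a share of 16.0% (10.3% to 24.2%) and regions not called 13.8% (11.8% to 16.1%), intervals that overlap.

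In shape, the embryo-uncalled regions were narrower than the other leg-wide regions and close to those with a peak at stage 24 only. Their median width was 470 bp (quartiles 369 to 595), against 489.5 bp in the regions with a peak at stage 24 only and 604 bp (482 to 782) in all other leg-wide regions. The other sets also merge embryo peaks, which can only widen a region, so this difference may come in part from the rule. Peaks of single leg libraries do not have this limit. The embryo-uncalled regions were also weaker, and widths were not compared at equal strength. The strongest peak within a region had a median width of 371, 294 and 274 bp in adult legs 1 to 3 and 276, 292 and 305 bp in embryonic legs 1 to 3. As a ratio to the same width in the other leg-wide regions, this was 0.811 ± 0.0160 in adult and 0.714 ± 0.0295 in embryonic legs (SD, n = 3 each; p = 0.1 by exact permutation, two-sided). A single summit in every leg library was seen in 725 regions (64.9%), against 67.8% of the regions with a peak at stage 24 only and 55.3% of all other leg-wide regions.

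Summits of the leg libraries lay less close together in the embryo-uncalled regions than in the other leg-wide regions. The embryo-uncalled regions were also weaker, and summit positions were not compared at equal strength. The summits of the 6 leg libraries spanned a median of 92.0 bp in the embryo-uncalled regions, 64.0 bp in the regions with a peak at stage 24 only and 70.0 bp in all other leg-wide regions. A span of at most 100 bp was found in 53.2%, 65.5% and 60.5% of these sets. The mean summit position of adult legs differed from that of embryonic legs by a median of 25.0 bp, against 18.7 bp in the regions with a peak at stage 24 only and 20.0 bp in all other leg-wide regions.

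The order of the embryo-uncalled regions by fold was less alike between libraries than that of all leg-wide regions. Across the 1117 regions, Spearman's rho of fold was 0.480 to 0.546 between adult leg libraries (3 pairs), 0.629 to 0.655 between embryonic leg libraries (3 pairs) and 0.223 to 0.378 between the leg types (9 pairs). Across all leg-wide regions it was 0.551 to 0.728, 0.867 to 0.877 and 0.535 to 0.686. These values describe regions of the same libraries, which are not independent, and the 1117 regions cover a narrower range of strength. The least significant of the 6 leg libraries was an embryonic one in 441 regions (39.5%), against 20.4% of the regions with a peak at stage 24 only and 15.6% of all other leg-wide regions, although adult leg 3 was still the most frequent (408 regions, 36.5%).

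The regions were scattered over the genome. They lay on 143 of the 649 scaffolds that carry a leg-wide region. On the 54 scaffolds with at least 100 leg-wide regions, which held 803 of them, they made up 1.74% to 19.1% of the leg-wide regions, with a median of 7.33%. The highest shares were on phaw_50.283815b (22 of 115), phaw_50.283869b (18 of 103) and phaw_50.000214d (16 of 103), and the lowest on phaw_50.283562a (3 of 172). Only 56 regions (5.01%) had another within 10 kb, and the median distance to the next on the same scaffold was 263 kb. For the regions with a peak at stage 24 only, a set of 2228, the values were 8.93% and 128 kb, and such distances shrink as a set grows.

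Of the windows of 100 kb that held any of the 1117 regions, 896 held 1, 93 held 2, 9 held 3 and 2 held 4. On phaw_50.282695a, 4 of 9 leg-wide regions between 26.0 and 26.1 Mb lacked an embryo peak, and 1 of these, at 26008503 to 26009063, was called higher in adult legs, with a mean rank of 24.4 in adult and 0.576 in embryonic legs (limma adjusted p = 0.0176). The window at 7.8 to 7.9 Mb of phaw_50.283815a held 4 of 10 leg-wide regions, and its region at 7860383 to 7860990 was called higher in adult legs, with 18.9 in adult and 0.0538 in embryonic legs (limma adjusted p = 0.0141). None of these 8 regions overlapped a naked DNA peak. Of the windows with 3, those at 36.8 to 36.9 Mb of phaw_50.282861b and at 7.3 to 7.4 Mb of phaw_50.283743b had the highest mean rank. In the first of them all 3 leg-wide regions lacked an embryo peak.

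Regions called in a single leg type lay near a larger share of the embryo-uncalled regions than of the other leg-wide regions. An embryonic-leg-only region (called in all 3 embryonic and no adult leg library) lay within 10 kb of 287 of the 1117 regions, 25.7% (95% Wilson interval 23.2% to 28.3%), against 21.1% (19.5% to 22.9%) of the regions with a peak at stage 24 only and 14.9% (14.3% to 15.5%) of all other leg-wide regions. An adult-leg-only region lay within 10 kb of 56, 5.01% (3.88% to 6.45%), against 3.32% (2.65% to 4.15%) and 2.91% (2.64% to 3.20%) of the same sets. The nearest region of any kind was also closer, at a median of 2158 bp, against 2453 bp and 3626 bp, and its part in these shares was not tested. Regions called higher in adult legs had an embryonic-leg-only region near in 29.2% and an adult-leg-only region in 4.72% of 106 cases.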

How the data were processed

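The authors deposited 1 peak list per library; per the submitters' processing notes, the tools were MACS2 2.2.7.1, Picard, bedtools 2.31.1, SAMtools 1.21 and Bowtie2 2.5.4, with no roles stated. The sources used here do not give build, control or read shift. The deposited fold is a ratio. Significance was deposited as −log10 of the p-value and of the q-value. The deposited score was not used. Rows with the same start and end were taken as 1 peak at the summit of lowest p. Pileups were recovered from fold and −log10 p, as whole numbers, within 0.002 for 100% of peaks. A region's value in a library was that of its highest-fold peak. Ranks were converted to normal scores and fitted with limma 3.58.1 (R 4.3.3), without a replicate block. Python 3.11.15, numpy 2.4.6, pandas 2.3.3 and scipy 1.17.1 were used. Interval, pileup and limma steps were tested on simulated data. The named regions are the 12 strongest, the 6 with the largest difference each way among those called, and the 4 windows with the most regions, ties broken by mean rank. Same-numbered libraries did not deviate together (correlations −0.117 to −0.0251). The regions, sets and lists were chosen with earlier results of these data known. Coordinates are 1-based. Peak lists give no read totals. Alternatives varied peaks, merging, scaffolds, naked DNA, ranking and libraries.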

Additional observations from a re-analysis of the deposited data

How the results depend on the processing

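The rank difference of 13.0 points in favour of adult legs kept its sign under every alternative run. It was 9.78 to 14.8 when leg libraries were left out and 5.91 when stage 24 was not asked for absence. The exact permutation p stayed at 0.1 (two-sided), as low as the design can go. Every alternative still asked for absence of embryo peaks, so these runs cannot separate the difference from the rule. The number of embryo-uncalled regions was 456 with leg peaks at a −log10 q of at least 5, 3345 when stage 24 was not asked, and 1175 to 1736 without 1 leg library, the highest without adult leg 3. With the same 48324 peaks in every nuclei library it was 1351, and 594 of the 1117 were among them. An overlap of 50% changed nothing, since a peak lies whole within its merged region.

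Beside each share is that over all leg-wide regions. Calls higher in adult legs were 190 by pileup (17.0%, against 5.71%), 178 of 3345 without stage 24 (5.32%, against 2.56%) and 311 by ranks that do not overlap (27.8%, against 13.5%). Without 1 leg library they were 0 to 159 with regions unchanged (at most 14.2%, against 4.33%). With regions rebuilt they were 0 to 156 (at most 13.3%, against 4.22%). Calls lower in adult legs were 18 by −log10 q (1.61%, against 6.75%), 24 by pileup (2.15%, against 8.81%), 11 on quantile-normalized log2 folds (0.985%, against 3.24%), 60 without stage 24 (1.79%, against 3.24%), 19 with equal lists (1.41%, against 4.17%) and 57 by ranks that do not overlap (5.10%, against 16.0%). Without 1 library they were 0 to 17 with regions unchanged (at most 1.52%, against 5.30%), with 14 without adult leg 2 (1.25%, against 4.81%). With regions rebuilt they were 0 to 28 (at most 1.72%, against 4.95%). In the runs that also rebuilt the regions, limma called 2, 6 and 0 higher without embryonic legs 1, 2 and 3 (0.148%, 0.474% and 0%, against 0.0439%, 0.0820% and 0.0195%). At an unadjusted p under 0.05 (limma) these runs gave 316, 289 and 256 (23.4%, 22.8% and 21.6%, against 8.39%, 8.69% and 7.85%). With the replicate number as a block, 77 were called higher (6.89%, against 1.60%) and 6 lower (0.537%, against 2.11%), and 75 and 5 of these were calls of the unblocked fit; same-numbered libraries shared only a number. Of the 12 named called regions none changed sign in the fits run, but all 12 lost the call without adult leg 3 and without embryonic leg 1, 8 without embryonic leg 2, 9 without embryonic leg 3, and 1 without adult leg 1 and under the block. For ranks and calls, the alternatives without stage 24, with equal lists, without naked DNA regions and with regions unchanged were chosen after seeing the data.

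The naked DNA share was 10.7% at 50% overlap and 1.88% with strict naked DNA peaks, against 26.0% and 16.9% in the other leg-wide regions. An embryo peak lay within 200 bp of 0.716%, within 2000 bp of 30.2% and, without stage 24, within 500 bp of 2.15%. Another of the regions lay within 1 kb of 0.716% and within 100 kb of 31.8%. At the lowest of 6 leg enrichments, 84.4% reached the embryo pileup limit at all stages, against 99.8% at the median. In the other leg-wide regions these shares were 92.1% and 99.8%. Calls in all 6 leg libraries, which the rule asked for, largely set such shares.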
